A study of Saccharomyces cerevisiae with 12 samples.

Results

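The 9 genes described here encode enzymes that make fatty acids and phospholipids in the yeast Saccharomyces cerevisiae, and they were picked by name from 7126 genes in the count table, of which 6044, all 9 among them, had enough counts to be tested. ACC1, FAS1, FAS2, OLE1 and ELO1 act in fatty acid synthesis, and INO1, CHO1, CHO2 and OPI3 in phospholipid synthesis. Their mRNA was counted in 3 strains that secrete α-amylase, a recombinant enzyme used as a test case for protein secretion, each grown in carbon-limited chemostats. B184 was isolated after UV mutagenesis of MH34, and MH34 after UV mutagenesis of AAC, so that each evolved strain is a single isolate. All 3 strains share a CEN.PK background, MATa with most of TPI1 deleted and KanMX in its place, and carry the plasmid pAlphaAmyCPOT, on which the TPI1 promoter drives the amylase behind an alpha factor leader and the POT1 gene of Schizosaccharomyces pombe serves as marker. Each strain was sampled at dilution rates of 0.2/h and 0.1/h, the rate of medium renewal that sets the growth rate, in biological duplicate, which gave 6 groups of 2 libraries. For MH34 and B184 at 0.1/h, but not named for AAC or for 0.2/h, ethanol was added to the bioreactor against oscillations, so that differences from AAC at 0.1/h, and between rates within MH34 and B184, cannot be told apart from that addition.

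In yeast, acetyl-CoA carboxylase (ACC1) makes malonyl-CoA, and the fatty acid synthase, built of the subunits FAS1 and FAS2, uses it to build saturated fatty acids. OLE1 desaturates them, and elongases such as ELO1 lengthen them. The acyl chains enter phosphatidic acid and CDP-diacylglycerol, from which CHO1 makes phosphatidylserine, and decarboxylation gives phosphatidylethanolamine, which CHO2 and then OPI3 methylate to phosphatidylcholine. INO1 makes inositol phosphate, the precursor of phosphatidylinositol. Many of these genes are known to be activated by the Ino2-Ino4 dimer, which binds an element with the core CATGTG, and to be repressed through Opi1 when inositol is present. These membranes are also those of the secretory pathway through which the amylase leaves the cell.

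Total counts ranged from 6040221 to 10785960 per library, and the 9 genes took between 0.713% and 1.45% of them. Replicates were biological, and the pair of AAC libraries at 0.1/h stood furthest apart, with a median absolute log2 ratio of 0.161 over all genes tested. For the 9 genes alone, the widest pair was MH34 at 0.2/h, with a median of 0.201 against 0.157 in AAC at 0.1/h. Mating type was read from marker genes. The MATa genes STE2, STE6, MFA1, MFA2 and BAR1 had at least 1469 counts in every library, whereas the MATα genes STE3 and MF(ALPHA)2 had at most 332 and 69. SAG1 had 442 to 954 counts and MF(ALPHA)1, whose leader the plasmid also carries, had 3510 to 27837. TPI1, deleted in all strains, kept 132 to 637 counts.

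All 9 genes are annotated as a single exon in the R64 assembly, and no annotated gene overlaps any of them. ACC1 (YNR016C) lies on chromosome XIV (654673 to 661374), FAS1 (YKL182W) on XI (100671 to 106826), FAS2 (YPL231W) on XVI (108652 to 114315) and OLE1 (YGL055W) on VII (398628 to 400160). ELO1 (YJL196C) lies on chromosome X (67850 to 68782), as do INO1 (YJL153C, 134332 to 135933) and OPI3 (YJR073C, 572315 to 572935), whereas CHO1 (YER026C) lies on V (207644 to 208474) and CHO2 (YGR157W) on VII (802440 to 805049). None lies on chromosome III, whose 151 tested genes had a median log2 fold change of 0.84 to 0.99 in the evolved strains over AAC. The CATGTG core of the Ino2-Ino4 element, a case of the wider E-box CANNTG, was searched on both strands in the 300 bases before each start codon. Whether matches go with the expression values was not tested. At least 1 match was found upstream of 5 of the 9 genes, against 7.15% of 6001 windows of the same length before yeast genes. INO1 and OPI3 had 2 matches each and FAS2, CHO1 and CHO2 had 1 each, whereas FAS1, OLE1 and ELO1 had none even in 500 bases. Within 500 bases, ACC1 was added, which made 6 of 9 genes against 13.2% of 6000 windows. The stretches that hold these matches are shown from 300 to 101 bases before the start codon, read toward the gene, from the RefSeq R64 reference strain and not from the strains studied. Capitals mark CATGTG or its reverse complement CACATG.
INO1 (chrX:136034-136233, minus strand): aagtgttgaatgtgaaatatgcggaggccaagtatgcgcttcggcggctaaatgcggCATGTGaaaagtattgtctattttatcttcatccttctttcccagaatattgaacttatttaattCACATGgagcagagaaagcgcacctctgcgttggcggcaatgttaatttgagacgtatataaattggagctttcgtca
CHO1 (chrV:208575-208774, minus strand): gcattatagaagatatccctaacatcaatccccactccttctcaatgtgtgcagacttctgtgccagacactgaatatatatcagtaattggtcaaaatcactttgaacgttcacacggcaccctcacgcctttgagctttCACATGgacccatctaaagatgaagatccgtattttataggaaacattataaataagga
CHO2 (chrVII:802140-802339, plus strand): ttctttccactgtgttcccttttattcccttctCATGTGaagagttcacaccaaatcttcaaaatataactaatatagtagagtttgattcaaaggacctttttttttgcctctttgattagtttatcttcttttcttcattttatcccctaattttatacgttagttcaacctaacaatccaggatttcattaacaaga
OPI3 (chrX:573036-573235, minus strand): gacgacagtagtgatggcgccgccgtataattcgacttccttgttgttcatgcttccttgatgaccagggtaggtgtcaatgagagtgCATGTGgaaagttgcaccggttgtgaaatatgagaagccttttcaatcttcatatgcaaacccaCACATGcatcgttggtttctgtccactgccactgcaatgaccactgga
FAS2 (chrXVI:108352-108551, plus strand): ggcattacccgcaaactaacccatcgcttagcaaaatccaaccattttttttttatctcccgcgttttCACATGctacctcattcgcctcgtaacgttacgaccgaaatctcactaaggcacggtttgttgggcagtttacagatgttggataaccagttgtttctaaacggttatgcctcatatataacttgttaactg

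Read in the direction of the motif, the 10 bases at each match differ in the part after the core.
FAS2, 232 bases before the start codon: CATGTGaaaa
INO1, 243 bases before the start codon: CATGTGaaaa
INO1, 178 bases before the start codon: CATGTGaatt
CHO1, 159 bases before the start codon: CATGTGaaag
CHO2, 267 bases before the start codon: CATGTGaaga
OPI3, 212 bases before the start codon: CATGTGgaaa
OPI3, 148 bases before the start codon: CATGTGtggg
In both INO1 and OPI3, the match further from the gene runs with the gene and the nearer match runs against it. A match is only a run of letters, and binding was not measured.

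**Figure D1:**
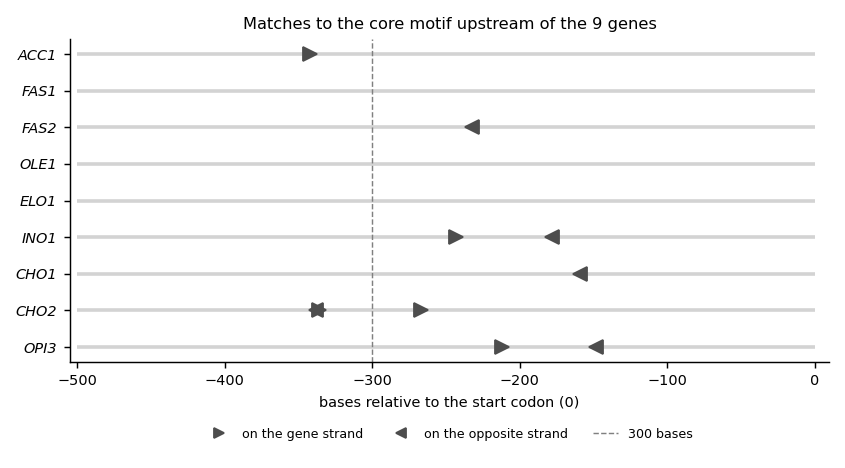
Positions of CATGTG matches in the 500 bases before the start codon of each of the 9 genes (horizontal axis, bases relative to the start codon), with arrowheads for the strand and a dashed line at 300 bases. Within 300 bases, INO1 and OPI3 have 2 matches each, FAS2, CHO1 and CHO2 have 1 each, and the 2 overlapping marks of CHO2 beyond the line are the same palindromic site read on both strands.

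Levels between genes were compared per length, as FPKM, the count scaled to exon length and to the library total. INO1 had the highest median over the 12 libraries, with 2388 FPKM, followed by OPI3 with 1746, CHO1 with 1079 and OLE1 with 789 FPKM. The remaining genes formed a lower band, in which FAS2 had 172, ELO1 166, FAS1 161, ACC1 142 and CHO2 141 FPKM. Neighbours in this order overlapped in their ranges over the libraries, except that the lowest OLE1 level, 594 FPKM, lay above all levels of the lower band, which ended at 236 FPKM for ELO1. All further levels are CPM, counts scaled to the library total with the TMM factors of edgeR, which compare libraries and not genes. Differences are log2 fold changes with standard errors from edgeR's quasi-likelihood fit, and a gene was called higher or lower at a Benjamini-Hochberg adjusted p under 0.05 over the 6044 genes.

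**Figure D2:**
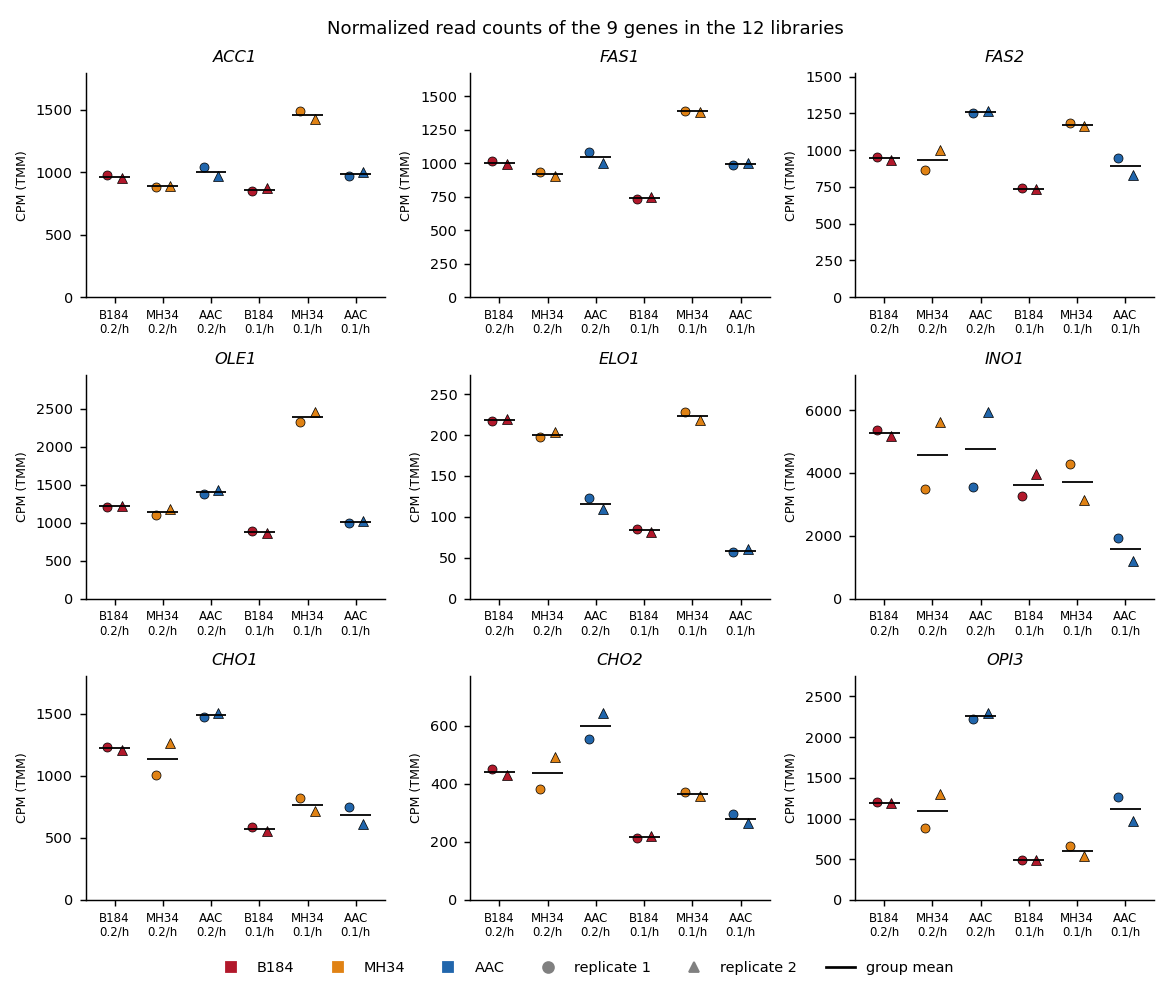
Normalized counts of the 9 genes (vertical axes, CPM with TMM factors, from 0) in the 12 libraries, by strain and dilution rate, with a circle for replicate 1, a triangle for replicate 2 and a line for the group mean. MH34 at 0.1/h is the highest group for ACC1, FAS1, OLE1 and ELO1, AAC at 0.2/h is the highest for CHO1, CHO2 and OPI3, and the INO1 replicates lie far apart in several groups.

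The fatty acid genes had their highest levels in MH34 at 0.1/h, apart from FAS2. ACC1, which commits acetyl-CoA to fatty acid synthesis, had 852 and 872 CPM in B184 and 1495 and 1428 CPM in MH34 at 0.1/h, against 974 and 1005 CPM in AAC. At 0.2/h, ACC1 had 976 and 952 CPM in B184 and 884 and 894 CPM in MH34, against 1042 and 971 CPM in AAC. The MH34 libraries at 0.1/h therefore stood above all others, and the other 10 spanned a narrow range. FAS1, the β subunit of the synthase, had 733 and 746 CPM in B184 and 1394 and 1382 CPM in MH34 at 0.1/h, against 988 and 1006 CPM in AAC. At 0.2/h, FAS1 had 1015 and 997 CPM in B184 and 939 and 908 CPM in MH34, against 1082 and 1006 CPM in AAC. For FAS1, too, the MH34 libraries at 0.1/h were the highest of the 12, and the B184 libraries at 0.1/h were the lowest.

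FAS2, the α subunit that carries the acyl carrier domain, followed its partner only in part. It had 956 and 934 CPM in B184 and 868 and 999 CPM in MH34 at 0.2/h, against 1250 and 1269 CPM in AAC. At 0.1/h, FAS2 had 742 and 734 CPM in B184 and 1183 and 1165 CPM in MH34, against 946 and 833 CPM in AAC. Here AAC at 0.2/h was the highest group, just above MH34 at 0.1/h, and the libraries of these groups did not overlap. The FPKM of FAS1 over that of FAS2 was 0.978 and 0.982 in B184 and 0.994 and 0.836 in MH34 at 0.2/h, against 0.797 and 0.73 in AAC. At 0.1/h, this ratio of the subunits was 0.909 and 0.935 in B184 and 1.08 and 1.09 in MH34, against 0.961 and 1.11 in AAC. The AAC libraries at 0.2/h had the 2 lowest ratios of the 12. The ratio was chosen after the values were seen and was given no test.

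OLE1, the only fatty acid desaturase of this yeast, changed more than the synthase. It had 885 and 864 CPM in B184 and 2331 and 2459 CPM in MH34 at 0.1/h, against 1002 and 1028 CPM in AAC. At 0.2/h, OLE1 had 1210 and 1224 CPM in B184 and 1101 and 1174 CPM in MH34, against 1382 and 1436 CPM in AAC. MH34 at 0.1/h was thus far above every other library, and AAC was the highest strain at 0.2/h. ELO1, which elongates medium-chain fatty acids, had 85.4 and 81.6 CPM in B184 and 228 and 219 CPM in MH34 at 0.1/h, against 56.4 and 61.2 CPM in AAC. At 0.2/h, it had 217 and 220 CPM in B184 and 198 and 203 CPM in MH34, against 123 and 109 CPM in AAC. At both rates, all ELO1 libraries of the evolved strains were above those of AAC. Of the 9 genes, ELO1 had the lowest counts, with 358 to 2331 reads per library.

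INO1, the inositol phosphate synthase, varied most between replicates. It had 5382 and 5187 CPM in B184 and 3503 and 5618 CPM in MH34 at 0.2/h, against 3554 and 5943 CPM in AAC. At 0.1/h, INO1 had 3276 and 3981 CPM in B184 and 4279 and 3130 CPM in MH34, against 1932 and 1212 CPM in AAC. The 3 strains overlapped at 0.2/h, and AAC lay below both evolved strains at 0.1/h. The log2 ratio of replicate 2 to replicate 1 reached 0.74 in AAC and 0.68 in MH34 at 0.2/h and was −0.67 in AAC at 0.1/h, so that the standard errors of INO1 differences, about 0.32, were the largest of the 9 genes.

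CHO1, CHO2 and OPI3 shared a higher level at 0.2/h. CHO1, the phosphatidylserine synthase, had 1236 and 1210 CPM in B184 and 1006 and 1263 CPM in MH34 at 0.2/h, against 1473 and 1504 CPM in AAC. At 0.1/h, CHO1 had 585 and 557 CPM in B184 and 823 and 714 CPM in MH34, against 749 and 615 CPM in AAC. MH34 overlapped AAC at 0.1/h and B184 at 0.2/h, and in each strain every 0.2/h library was above every 0.1/h library. CHO2, which adds the first methyl group to phosphatidylethanolamine, had 451 and 430 CPM in B184 and 384 and 493 CPM in MH34 at 0.2/h, against 552 and 642 CPM in AAC. At 0.1/h, CHO2 had 213 and 221 CPM in B184 and 370 and 358 CPM in MH34, against 295 and 264 CPM in AAC. The order of the strains therefore differed between the rates, with AAC highest at 0.2/h and MH34 highest at 0.1/h. OPI3, which completes the methylation to phosphatidylcholine, had 1200 and 1192 CPM in B184 and 886 and 1299 CPM in MH34 at 0.2/h, against 2219 and 2292 CPM in AAC. At 0.1/h, OPI3 had 488 and 495 CPM in B184 and 668 and 545 CPM in MH34, against 1260 and 964 CPM in AAC. At both rates the AAC libraries were above all libraries of the evolved strains.

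The evolved strains were compared with AAC at 0.2/h to ask which of these genes differ in strains with higher amylase secretion. ELO1 was higher and FAS2, CHO2 and OPI3 were lower in both strains. In B184, 1 gene was higher, 3 were lower and 5 were not called, in a comparison that called 36.2% of all genes tested (18.4% higher and 17.7% lower). The median of the 9 log2 fold changes was −0.21, against −0.02 for all genes. ELO1 was 1.88-fold higher in B184 than in AAC (log2 0.91 ± 0.07 SE, edgeR adjusted p = 5.96e-06), and OPI3 fell by 0.91 on the log2 scale (SE 0.18, edgeR adjusted p = 0.00273). FAS2 fell by 0.41 (SE 0.10) and CHO2 by 0.44 (SE 0.12), with edgeR adjusted p = 0.00793 and 0.0134. The FAS2 and CHO2 calls were lost when either B184 library was left out (edgeR adjusted p = 0.0517 to 0.0944), and that of CHO2 also without replicate 2 of AAC (edgeR adjusted p = 0.106).

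In MH34 at 0.2/h, 1 gene was higher, 5 were lower and 3 were not called, and 33.1% of all genes were called in that comparison (17.4% higher and 15.7% lower). The median was −0.31 for the 9 genes and −0.01 for all. ELO1 was 1.73-fold higher in MH34 than in AAC (log2 0.79 ± 0.07 SE, edgeR adjusted p = 1.82e-05). OPI3 fell by 1.05 (SE 0.18, edgeR adjusted p = 0.00138), FAS2 by 0.43, CHO2 by 0.45, CHO1 by 0.39 and OLE1 by 0.31 on the log2 scale. Without replicate 1 of MH34, ELO1 and OPI3 kept their calls, and FAS2, OLE1, CHO1 and CHO2 lost theirs, with log2 fold changes of −0.335, −0.265, −0.238 and −0.278 (edgeR adjusted p = 0.0504, 0.0974, 0.243 and 0.098). Without replicate 2 of AAC, 3 genes were called. These 4 genes kept a negative log2 fold change whichever library was left out.

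At 0.1/h the evolved strains parted. In B184, ELO1 and INO1 were higher, FAS1, CHO2 and OPI3 were lower and 4 genes were not called, with 36.9% of all genes called (16.5% higher and 20.4% lower) and a median of −0.25 against −0.04. ELO1 was 1.42-fold higher in B184 than in AAC (log2 0.50 ± 0.08 SE, edgeR adjusted p = 0.000695), OPI3 fell by 1.18 (SE 0.18, edgeR adjusted p = 0.000579) and FAS1 by 0.43 (SE 0.08, edgeR adjusted p = 0.00251). The FAS1 call was lost when only the B184 and AAC groups at 0.1/h were fitted (edgeR adjusted p = 0.0674). CHO2 fell by 0.36 (SE 0.12, edgeR adjusted p = 0.0334), a call lost without replicate 1 of AAC (edgeR adjusted p = 0.139) or without either B184 library, and 3 genes were called without replicate 2 of B184. In MH34, 7 of the 9 genes were higher, OPI3 was lower and CHO1 was not called, where 68.8% of all genes were called (35.5% higher and 33.3% lower). The median log2 fold change was 0.48 for the 9 genes and 0.02 for all. ELO1 was 3.80-fold higher in MH34 than in AAC (log2 1.93 ± 0.08 SE, edgeR adjusted p = 1.7e-08) and OLE1 2.36-fold (log2 1.24 ± 0.09 SE, edgeR adjusted p = 5.89e-07). ACC1, FAS1 and FAS2 were 1.48-, 1.39- and 1.32-fold higher, with standard errors of 0.08 to 0.10 on the log2 scale. OPI3 fell by 0.87 (SE 0.18, edgeR adjusted p = 0.00116). CHO2 was 1.30-fold higher (log2 0.38 ± 0.12 SE, edgeR adjusted p = 0.0131), and this call was lost without replicate 2 of AAC (edgeR adjusted p = 0.0715) or without replicate 1 of MH34 (edgeR adjusted p = 0.0648).

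**Figure D3:**
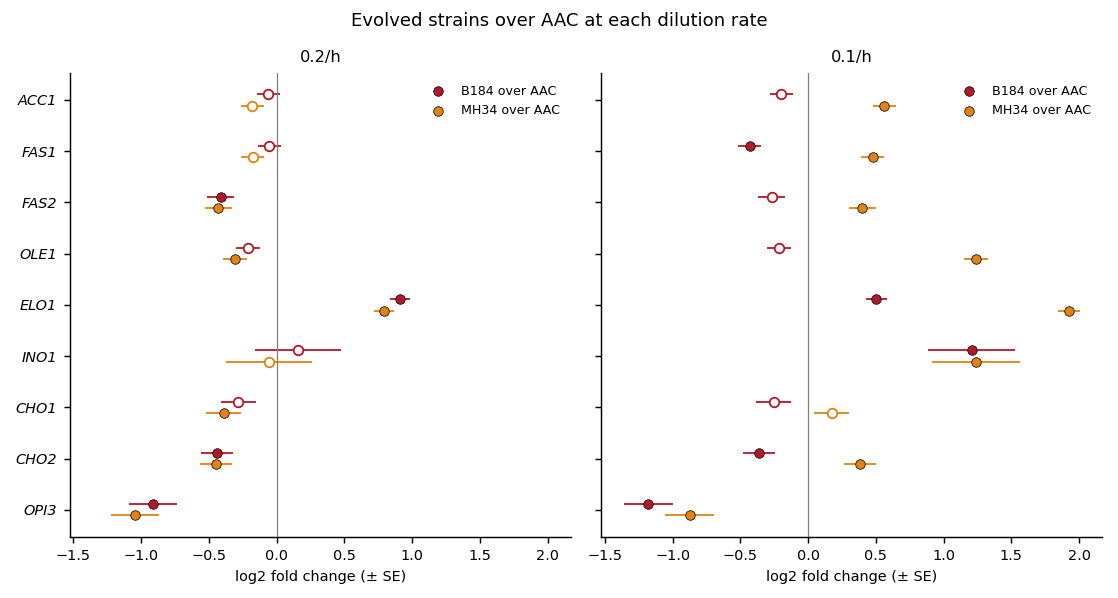
Log2 fold change of each gene (horizontal axis, with bars of 1 SE) in B184 and MH34 over AAC at 0.2/h (left) and 0.1/h (right), with filled points for an adjusted p under 0.05 and open points for the others. ELO1 is right of 0 and OPI3 left of 0 in all 4 comparisons, and at 0.1/h the points of MH34 for ACC1, FAS1, FAS2 and OLE1 lie right of 0 while those of B184 lie left of it.

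INO1 was 2.31-fold higher in B184 (log2 1.21 ± 0.32 SE, edgeR adjusted p = 0.0172) and 2.36-fold higher in MH34 (log2 1.24 ± 0.32 SE, edgeR adjusted p = 0.00685) than in AAC at 0.1/h. Both calls were lost without replicate 2 of AAC, with log2 fold changes of 0.91 (edgeR adjusted p = 0.104) and 0.94 (edgeR adjusted p = 0.0657), and that of B184 was also lost without its own replicate 2 (edgeR adjusted p = 0.0847). At 0.2/h, the log2 fold changes of INO1 over AAC were 0.15 in B184 and −0.06 in MH34, with 95% intervals of −0.56 to 0.87 and −0.77 to 0.66. For B184, the interval at 0.1/h (0.48 to 1.93) overlapped that at 0.2/h, and the difference between the rates was not called (−1.05, edgeR adjusted p = 0.209).

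The fall of OPI3 was also seen against CHO2 and CHO1 within each library, a ratio that does not depend on the scaling of the library. It was chosen after the values were seen and was given no test. The FPKM of OPI3 over that of CHO2 was 11.2 and 11.7 in B184 and 9.71 and 11.1 in MH34 at 0.2/h, against 16.9 and 15 in AAC. At 0.1/h it was 9.6 and 9.42 in B184 and 7.59 and 6.39 in MH34, against 18 and 15.3 in AAC. All 8 libraries of the evolved strains were below all 4 of AAC. The FPKM of OPI3 over that of CHO1 was 1.02 to 1.38 in the libraries of the evolved strains and 2.02 to 2.25 in those of AAC, again without overlap. Unequal change shows in these ratios, and not which gene changed. PSD1, the decarboxylase between CHO1 and CHO2, was not used as a denominator. Over AAC at 0.2/h, PSD1 fell by 0.98 in B184 and 0.97 in MH34, against 0.91 and 1.05 for OPI3. At 0.1/h, PSD1 fell less than OPI3 in B184 and by a similar amount in MH34. A fall of this size was therefore not particular to OPI3.

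**Figure D4:**
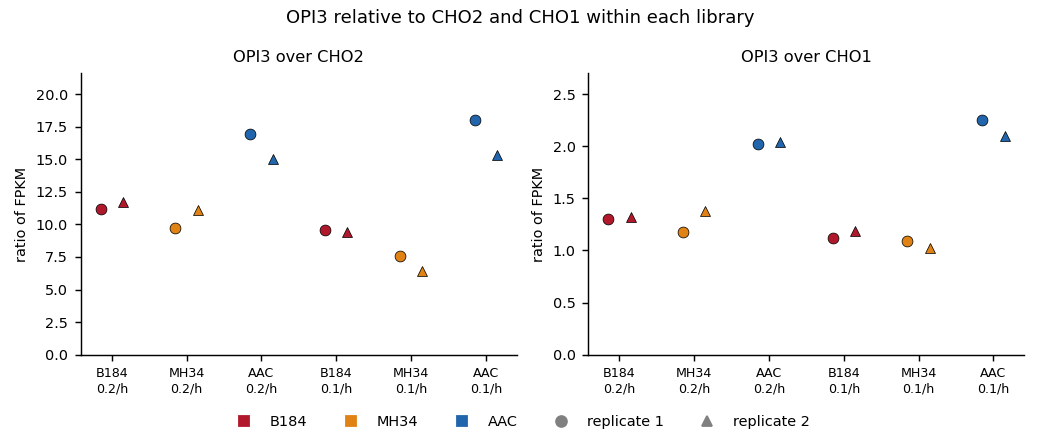
Ratio of the FPKM of OPI3 to that of CHO2 (left) and CHO1 (right), both axes from 0, in each of the 12 libraries, by strain and rate. The 8 libraries of B184 and MH34 lie at 6.39 to 11.7 (left) and 1.02 to 1.38 (right), below the 4 of AAC at 15 to 18 (left) and 2.02 to 2.25 (right).

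B184 was next compared with MH34, from which it was derived. At 0.2/h, none of the 9 genes differed by edgeR's quasi-likelihood test, none had an unadjusted p under 0.05, DESeq2 also called 0, and 0.0165% of all genes were called, 0% higher and 0.0165% lower. The largest log2 fold change was that of INO1 (0.21, 95% interval −0.50 to 0.93), and that of ELO1 was 0.12 (95% interval −0.04 to 0.28). At 0.1/h, 7 genes were lower in B184 and none higher, against 62.6% of all genes called (29.1% higher and 33.6% lower), and the median was −0.75 for the 9 genes and −0.04 for all. OLE1 fell by 1.45 on the log2 scale (SE 0.09, edgeR adjusted p = 3.02e-07) and ELO1 by 1.42 (SE 0.08, edgeR adjusted p = 1.41e-07). FAS1 fell by 0.91, ACC1 by 0.76, CHO2 by 0.75 and FAS2 by 0.67, with standard errors of 0.08 to 0.12. CHO1 fell by 0.43 (SE 0.13, edgeR adjusted p = 0.0142), a call lost without replicate 1 of MH34 (edgeR adjusted p = 0.123) or replicate 2 of B184 (edgeR adjusted p = 0.0836). The log2 fold changes of INO1 and OPI3 were −0.03 and −0.30, and neither was called. Since ethanol was added to both strains at 0.1/h, this comparison does not carry the difference in medium that those with AAC do.

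The dilution rates were compared as 0.2/h over 0.1/h in each strain, which in MH34 and B184 also carries the ethanol added at 0.1/h. In B184, 7 genes were higher at 0.2/h and none lower, with 66.6% of all genes called (33.9% higher and 32.7% lower). In AAC, 7 were higher and none lower, with 68.2% called (32.7% higher and 35.5% lower). The medians of the 9 genes were 0.54 in B184 and 0.98 in AAC, against 0.01 and −0.03 for all genes. CHO1, CHO2 and OPI3 were 2.03- to 2.44-fold higher in B184 and 2.03- to 2.18-fold higher in AAC at 0.2/h. OLE1 was 1.39-fold higher in B184 and 1.39-fold higher in AAC, and ELO1 was 2.62-fold higher in B184 and 1.97-fold in AAC. FAS2 was 1.28-fold higher in B184 and 1.42-fold in AAC, and the call in B184 was lost without replicate 1 of B184 at 0.2/h (edgeR adjusted p = 0.0523). The genes that were not called were ACC1 and INO1 in B184 and ACC1 and FAS1 in AAC. For INO1, the log2 fold change in B184 was 0.54 (95% interval −0.17 to 1.26), whereas it was 3.02-fold higher in AAC at 0.2/h (log2 1.60 ± 0.33 SE, edgeR adjusted p = 0.00175).

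MH34 differed in fatty acid synthesis. OLE1 and FAS2 were lower at 0.2/h in MH34 but higher in B184 and AAC. ACC1 was lower in MH34 and not called in the other strains, and FAS1 was lower in MH34, higher in B184 and not called in AAC. At 0.2/h, 2 genes were higher, 4 were lower and 3 were not called in MH34, with 26.8% of all genes called (13.5% higher and 13.3% lower) and a median of −0.16 against −0.01. OLE1 fell by 1.07 (SE 0.09, edgeR adjusted p = 3.18e-05), ACC1 by 0.72 (SE 0.09, edgeR adjusted p = 0.000377), FAS1 by 0.59 (SE 0.08, edgeR adjusted p = 0.00113) and FAS2 by 0.33 (SE 0.10, edgeR adjusted p = 0.0309) on the log2 scale. CHO1 was 1.48-fold higher (log2 0.56 ± 0.13 SE, edgeR adjusted p = 0.0118) and OPI3 1.80-fold (log2 0.85 ± 0.18 SE, edgeR adjusted p = 0.00768). ELO1, INO1 and CHO2 had log2 fold changes of −0.16, 0.30 and 0.27. Without replicate 2 of MH34 at 0.1/h, the calls of FAS2, CHO1 and OPI3 were lost, with log2 fold changes of −0.341, 0.463 and 0.71. The FAS2 call was also lost without replicate 1 of MH34 at 0.1/h (log2 −0.32) or at 0.2/h (log2 −0.233). By library size only, and with only the compared groups in the fit, FAS2 was again not called (edgeR adjusted p = 0.106 and 0.0506). Without replicate 2 of MH34 at 0.2/h, the calls of CHO1 and OPI3 were lost, with log2 fold changes of 0.39 and 0.548. Between the MH34 replicates at 0.2/h, INO1, OPI3, CHO2 and CHO1 differed in the same direction, with log2 ratios of replicate 2 to replicate 1 of 0.68, 0.55, 0.36 and 0.33. These genes also shared a direction in AAC at 0.1/h (−0.673, −0.387, −0.158 and −0.285) and in MH34 at 0.1/h (−0.451, −0.294, −0.046 and −0.205). In AAC at 0.2/h the ratios were 0.742, 0.047, 0.218 and 0.03, and in B184 at 0.2/h they were −0.069 to −0.009. Only in B184 at 0.1/h did the signs differ. The source of these shared differences was not tested.

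**Figure D5:**
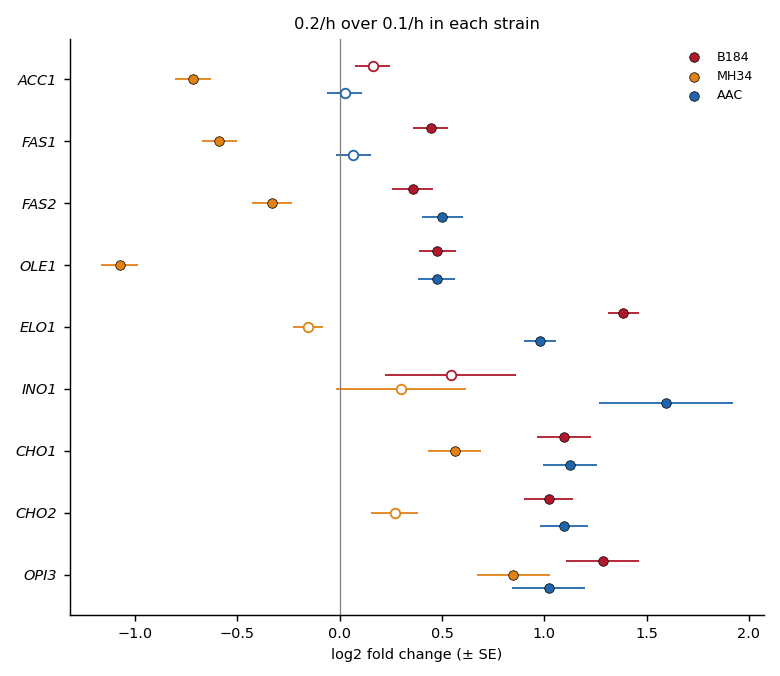
Log2 fold change of each gene at 0.2/h over 0.1/h (horizontal axis, with bars of 1 SE) in B184, MH34 and AAC, with filled points for an adjusted p under 0.05 and open points for the others. The 4 called genes of fatty acid synthesis in MH34 lie left of 0, and every called gene of B184 and AAC lies right of it.

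Whether the strain effects depended on the rate was tested in the same fit, as the strain difference at 0.2/h minus that at 0.1/h. Against AAC, this term cannot be told apart from the ethanol added to the evolved strains at 0.1/h. For MH34 against AAC, the difference was called in 8 of the 9 genes, each time as negative, where 53.1% of all genes were called (26.6% positive and 26.6% negative), and the median was −0.83 against 0.02. It was −1.55 ± 0.13 SE for OLE1, −1.14 ± 0.11 for ELO1, −0.83 ± 0.14 for FAS2, −0.83 ± 0.17 for CHO2, −0.74 ± 0.12 for ACC1 and −0.65 ± 0.12 for FAS1, on the log2 scale. OPI3, which was lower in MH34 at both rates, had a difference of −0.17 ± 0.25 SE (95% interval −0.72 to 0.38) and was not called. The calls of INO1 (−1.30 ± 0.45 SE, edgeR adjusted p = 0.0358) and CHO1 (−0.57 ± 0.18 SE, edgeR adjusted p = 0.0234) were each lost when 1 of 4 single libraries was left out, among them replicate 2 of AAC at 0.1/h (edgeR adjusted p = 0.126 and 0.0556) and replicate 1 of MH34 at 0.2/h (edgeR adjusted p = 0.106 and 0.0777).

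For B184 against AAC, edgeR called 0 of the 9 genes, 3 had an unadjusted p under 0.05 and DESeq2 called 1, with 5.49% of all genes called (3.26% positive and 2.23% negative). ELO1 came nearest, with a difference of 0.41 ± 0.11 SE (edgeR adjusted p = 0.0523), and FAS1 and INO1 had 0.38 ± 0.12 SE (edgeR adjusted p = 0.0871) and −1.05 ± 0.45 SE (edgeR adjusted p = 0.209). Without replicate 1 of AAC at 0.1/h, 2 genes were called. For B184 against MH34, a comparison added after the data were seen, 7 genes were called, all with a positive difference, and INO1 (0.24) and OPI3 (0.44) were not, with 51.9% of all genes called (27.8% positive and 24.1% negative) and a median of 0.75 against 0.04. The differences were 1.55 ± 0.13 SE for OLE1, 1.54 ± 0.10 for ELO1, 1.03 ± 0.12 for FAS1, 0.88 ± 0.12 for ACC1, 0.75 ± 0.17 for CHO2, 0.69 ± 0.14 for FAS2 and 0.54 ± 0.18 for CHO1. The CHO1 call was lost when any of 6 of the 8 libraries was left out. The comparisons that share libraries of 1 strain are not independent of each other.

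The regulators of these genes were read from the same fit. INO2 and INO4, which form the activating dimer, and OPI1, the repressor, were each lower in both evolved strains at both rates. INO2 had 68.0 and 64.1 CPM in B184 and 68.9 and 89.7 CPM in MH34 at 0.2/h, against 132 and 152 CPM in AAC. At 0.1/h, INO2 had 65.8 and 63.6 CPM in B184 and 61.4 and 56.7 CPM in MH34, against 137 and 97.7 CPM in AAC. No library of an evolved strain reached the level of an AAC library. INO2 fell by 1.10 in B184 and 0.84 in MH34 at 0.2/h and by 0.86 and 0.99 at 0.1/h on the log2 scale (SE 0.16, edgeR adjusted p = 0.000338 to 0.00292). INO4 fell by 0.82 in B184 and 0.76 in MH34 at 0.2/h and by 0.76 and 1.19 at 0.1/h (SE 0.10, edgeR adjusted p = 1.77e-06 to 0.000259). OPI1 fell by 0.35 in B184 and 0.33 in MH34 at 0.2/h and by 0.59 and 0.79 at 0.1/h (SE 0.11, edgeR adjusted p = 9.75e-05 to 0.0455). INO2 was not called between rates in any strain, whereas INO4 was lower at 0.2/h in B184 (log2 −0.38) and in AAC (log2 −0.32).

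SCS2, which holds Opi1 at the endoplasmic reticulum, had 396 and 400 CPM in B184 and 227 and 233 CPM in MH34 at 0.1/h, against 389 and 387 CPM in AAC. It fell by 0.75 in MH34 over AAC at 0.1/h (SE 0.06, edgeR adjusted p = 1.18e-06), and in B184 it was close to AAC at both rates (log2 0.04, SE 0.06). At 0.2/h SCS2 fell by 0.81 in B184 and by 0.81 in AAC, but had a log2 fold change of 0.06 in MH34. MGA2 and SPT23 encode membrane-bound activators of OLE1. MGA2 was 0.38 higher in MH34 and fell by 0.37 in B184 on the log2 scale over AAC at 0.1/h (SE 0.08 and 0.09), and like OLE1 it fell at 0.2/h in MH34 (by 0.38, edgeR adjusted p = 0.00848). SPT23 was lower at 0.2/h in all 3 strains, by 0.46 in B184, 0.32 in MH34 and 0.54 in AAC. Of the 6 regulators, 1 was higher and 3 were lower in B184 at 0.2/h, and the same counts held for MH34, against 36.2% and 33.1% of all genes called.

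Among the 12 genes of fatty acid elongation and activation, 7 were higher and 3 lower in MH34 over AAC at 0.1/h, where 68.8% of all genes were called, and 2 were higher and 5 lower in B184, where 36.9% were. ELO2 and ELO3 are the elongases of very-long-chain fatty acids and relatives of ELO1. ELO2 had 126 and 106 CPM in B184 and 273 and 296 CPM in MH34 at 0.1/h, against 64.8 and 56.0 CPM in AAC. At 0.2/h, ELO2 had 482 and 464 CPM in B184 and 422 and 508 CPM in MH34, against 282 and 302 CPM in AAC. Like ELO1, it was higher in both evolved strains at both rates, by 0.945 in B184 and 2.24 in MH34 at 0.1/h and by 0.70 and 0.67 at 0.2/h (SE 0.11 to 0.12, edgeR adjusted p = 7.36e-08 to 0.00102). ELO2 lies on chromosome III, whose median log2 fold changes were given above as 0.84 to 0.99, and the part of the chromosome in these values was not tested. ELO3, on chromosome XII, was called over AAC only in MH34 at 0.1/h, with a log2 fold change of 1.25 ± 0.20 SE (edgeR adjusted p = 0.000443). At 0.2/h over 0.1/h, ELO3 rose by 2.51 in B184, 0.94 in MH34 and 2.39 in AAC, and ELO2 by 2.03, 0.71 and 2.27, on the log2 scale.

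Of the 9 genes of phospholipid synthesis through CDP-diacylglycerol, 3 were higher and 3 lower in each evolved strain at 0.2/h, where 36.2% of all genes were called in B184 and 33.1% in MH34. PSD1, the mitochondrial phosphatidylserine decarboxylase between CHO1 and CHO2, was lower in both strains at both rates. It fell by 0.98 in B184 and 0.97 in MH34 at 0.2/h and by 0.38 and 0.91 at 0.1/h (SE 0.13, edgeR adjusted p = 7.77e-05 to 0.0361). PGS1, which starts cardiolipin synthesis and lies on chromosome III, was higher by 0.85 in B184 and 0.89 in MH34 at 0.2/h and by 0.97 and 1.09 at 0.1/h (SE 0.07 to 0.08). CDS1, the CDP-diacylglycerol synthase, was the gene whose pattern was most like that of CHO1. It had 432 and 396 CPM in B184 and 339 and 443 CPM in MH34 at 0.2/h, against 544 and 593 CPM in AAC. At 0.1/h, CDS1 had 120 and 133 CPM in B184 and 223 and 203 CPM in MH34, against 230 and 167 CPM in AAC. As for CHO1, every 0.2/h library of a strain was above its 0.1/h libraries, and CDS1 rose by 1.71 in B184, 0.88 in MH34 and 1.52 in AAC (SE 0.16, edgeR adjusted p = 6.2e-06 to 0.00417).

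The genes for uptake of inositol, choline and glycerophosphoinositol had higher levels at 0.2/h. All 4 of them were higher at 0.2/h in B184, and 3 of 4 were higher in MH34 and in AAC, where 66.6%, 26.8% and 68.2% of all genes were called in either direction. ITR1, the main inositol permease, had 4077 and 3944 CPM in B184 and 3053 and 4600 CPM in MH34 at 0.2/h, against 5462 and 6332 CPM in AAC. At 0.1/h, ITR1 had 1388 and 1331 CPM in B184 and 2064 and 1743 CPM in MH34, against 2842 and 2158 CPM in AAC. AAC had the highest ITR1 level at both rates. ITR1 fell by 0.56 in B184 and 0.62 in MH34 at 0.2/h and by 0.88 in B184 at 0.1/h (SE 0.20, edgeR adjusted p = 0.0452, 0.0304 and 0.00541). HNM1, the choline permease, was higher in MH34 over AAC at 0.1/h by 1.20 ± 0.14 SE and rose at 0.2/h by 1.90 in B184 and 1.77 in AAC, whereas in MH34 it had a log2 fold change of 0.32 and was not called. GIT1, a permease for glycerophosphoinositol on chromosome III, rose by 2.71, 1.75 and 2.06 at 0.2/h in B184, MH34 and AAC.

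Over all 58 genes of these lists and 3 further ones, each of which was tested, 9 were higher and 17 lower in B184 and 8 higher and 16 lower in MH34 at 0.2/h, with medians of −0.07 and −0.06, where 36.2% and 33.1% of all genes were called. At 0.1/h, 10 were higher and 20 lower in B184, and 22 were higher and 20 lower in MH34, where 36.9% and 68.8% of all genes were called. Without the 4 genes on chromosome III, 5 were higher in B184 and 5 in MH34 at 0.2/h, with 17 and 16 lower, and 7 and 18 were higher at 0.1/h, with 20 lower in each. Between B184 and MH34 at 0.2/h, edgeR called none of the 58. The CATGTG core was found within 300 bases of 15 of the 58 genes, against 7.15% of 6001 windows, among them INO2, INO4, ITR1, HNM1, CDS1, PSD1, PGS1 and ELO2.

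Across the 12 libraries, the members fell into sets that moved together, which is given as a description, since the libraries share strains and rates. The Pearson r of log2 levels was 0.96 between CHO1 and CHO2, 0.93 between ACC1 and OLE1, 0.93 between FAS1 and OLE1, 0.92 between ACC1 and FAS1 and 0.85 between CHO1 and OPI3. FAS2 stood between the sets, with 0.77 to FAS1 and 0.80 to CHO2. INO1 had 0.63 to CHO1 and 0.21 to OPI3, and ELO1 had −0.01 to OPI3. For each member, the 3 most alike genes were then sought among 5542 whose mean count reached 50. For CHO1 they were CDS1 (r 0.99), IFA38, a reductase of the elongation cycle (r 0.987), and ERV25 of the early secretory vesicles (r 0.985), and for ELO1 the vacuolar ATPase subunit VMA8 (r 0.991), MCO10 (r 0.988) and the prefoldin subunit GIM4 (r 0.986). The OLE1 pattern was nearest to BUD13, RMD6 and MET1 (r 0.947 to 0.98). MET1 and LCL3 were shared by ACC1 and FAS1 (r 0.938 to 0.975), to which MEP2, an ammonium permease, was added for ACC1 (r 0.952) and MGA2 for FAS1 (r 0.941). FAS2 was nearest to PCM1, IZH2 and OAZ1 (r 0.95 to 0.963), CHO2 to XPT1, YGL188C-A and PHO13 (r 0.985 to 0.994) and OPI3 to SPO11, HCH1 and NUP120 (r 0.976 to 0.985). INO1 had the least close neighbours, ARI1, BAP3 and HCR1 (r 0.91 to 0.915).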

How the data were processed

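RNA of the 12 chemostat cultures was sequenced in pairs of reads from stranded mRNA libraries. The authors deposited whole-number counts per gene for 7126 genes, without normalization, from reads mapped to the R64 reference genome. The study's methods name an nf-core pipeline, whereas the submitters' processing notes name TopHat2 2.0.12, Cufflinks 2.2.1 and Subread 1.4.6, and which of these made the counts is not given in the sources used here. The strand setting and the handling of multi-mapping reads are not given in the sources used here, so that a share of reads of paralogs such as ACC1 and HFA1 is uncertain. Of the 7126 identifiers, 6048 matched RefSeq R64.

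Counts were tested in edgeR 4.0.16 (R 4.3.3) with TMM factors, its filter on low counts, 1 robust quasi-likelihood fit of the 6 groups and Benjamini-Hochberg adjustment over 6044 genes, with 0.05 as threshold. The median prior degrees of freedom were 4.99, and depth was 6040221 to 10785960 counts per library. FPKM was computed from exon length and library total. Intervals are at 95%. Alternatives were other scalings, filters, DESeq2 1.42.0, the replicate number as a block, fits of the compared groups only, a fold threshold and each library left out. The code was tested on simulated data. Sequences were read with Python 3.11.15 from RefSeq R64.

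The members, lists and tests were chosen with earlier results of these data known. All 9 members are named. From 7 lists of 58 genes, the named genes are INO2, INO4, OPI1, MGA2, SPT23, ELO2 and ELO3 and, in each comparison, up to 2 largest rises and 2 largest falls among called genes whose mean count reached 50 and whose groups did not overlap. CDS1, the further values of SCS2 and HNM1 and those of named genes outside the comparison that named them were chosen after values were seen. For each member, the 3 genes with the highest r over 12 libraries of log2(CPM + 1) are named.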

Additional observations from a re-analysis of the deposited data

Results flagged for a closer look

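The strain effect of MH34 over AAC differed between the rates for 8 genes by the interaction term of edgeR, as the log2 fold change at 0.2/h minus that at 0.1/h. This term was called for 53.1% of all genes tested, and the calls of INO1 and CHO1 were lost in several other settings. The difference was −1.55 for OLE1, −1.3 for INO1, −1.14 for ELO1, −0.83 for FAS2, −0.83 for CHO2, −0.74 for ACC1, −0.65 for FAS1 and −0.57 for CHO1. For OLE1 the log2 fold changes behind it were −0.31 at 0.2/h and 1.24 at 0.1/h. FAS2, OLE1 and CHO2 were called at both rates, lower in MH34 at 0.2/h and higher at 0.1/h. Their calls at 0.2/h did not hold without replicate 1 of MH34, with log2 fold changes of −0.335, −0.265 and −0.278. The call of CHO2 at 0.1/h was lost by library size only. The signs also differed for ACC1, FAS1 and INO1, which were not called at 0.2/h, and for CHO1, which was not called at 0.1/h.

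The effect of B184 over MH34 also differed between the rates by the same term, added after the data were seen. Here 51.9% of all genes tested were called, and the call of CHO1 was lost in several other settings. The difference was 1.55 for OLE1, 1.54 for ELO1, 1.03 for FAS1, 0.88 for ACC1, 0.75 for CHO2, 0.69 for FAS2 and 0.54 for CHO1. Both comparisons share the 4 MH34 libraries, and the values of MH34 at 0.1/h enter both with opposite signs. Ethanol had been added to MH34 and B184 at 0.1/h, and its part in the term of B184 against MH34 was not tested. It was not named for AAC, so that the term of MH34 against AAC cannot be told apart from that addition.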

How the results depend on the processing

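Of 65 called results of single members, none changed direction in the other fits or when each of the 12 libraries was left out. Of these results, 46 kept their call throughout and 19 lost it at least once. The fold threshold was applied only to the counts and shares of called genes, and not to these single results. With an absolute log2 change of 1 or more also required, the counts of called members were 0 and 1 for B184 and MH34 over AAC at 0.2/h, 2 and 3 at 0.1/h, 2 for B184 over MH34 at 0.1/h, 4, 1 and 4 for the rate in B184, MH34 and AAC, and 3 for the dependence on the rate of MH34 against AAC and of B184 against MH34. By library size only, 3 members were called in MH34 over AAC at 0.2/h and 2 in the dependence of B184 against AAC. With only the compared groups in the fit, 3 were called in MH34 over AAC at 0.2/h and 3 in B184 over AAC at 0.1/h, where DESeq2 called 8. DESeq2 called 1 in the dependence of B184 against AAC. Over all settings and comparisons, the count of called members changed markedly in 24 cases and little in 144. The share of all genes called changed markedly in 32 and little in 136, so that a changed count is not a trait of the members alone. Leaving out single libraries gave 2 to 4 called members for B184 and 2 to 6 for MH34 over AAC at 0.2/h, 3 to 6 for B184 and 6 to 8 for MH34 over AAC at 0.1/h, 6 to 7 for B184 over MH34 at 0.1/h, 3 to 6 for the rate in MH34 and 0 to 2 for the dependence of B184 against AAC.

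Of 37 values without a call that were followed, 15 turned in sign. In the dependence of B184 against AAC, only FAS1, ELO1 and INO1, with an unadjusted p under 0.05, were followed. By library size only they were 0.03 for ACC1 and 0.039 for FAS1 in B184 over AAC at 0.2/h, 0.058 for INO1 in MH34 over AAC at 0.2/h, −0.01 for FAS2 and −0.022 for CHO2 in B184 over MH34 at 0.2/h, 0.113 for INO1 in B184 over MH34 at 0.1/h, −0.124 for ACC1 and −0.082 for FAS1 for the rate in AAC, and 0.057 for OPI3 in the dependence of MH34 against AAC. INO1 in B184 over MH34 at 0.1/h was also 0.002 by RLE, 0.002 by DESeq2 and 0.009 with only the compared groups. Leaving out single libraries gave ranges across 0 for the uncalled INO1 in B184 over AAC (−0.169 to 0.571), MH34 over AAC (−0.43 to 0.359) and B184 over MH34 at 0.2/h (−0.088 to 0.597), in B184 over MH34 at 0.1/h (−0.238 to 0.213), for the rate in MH34 (−0.08 to 0.601) and in the dependence of B184 against MH34 (−0.059 to 0.626). In B184 over MH34 at 0.2/h the ranges were −0.08 to 0.125 for FAS2, −0.046 to 0.285 for CHO1, −0.162 to 0.204 for CHO2 and −0.118 to 0.437 for OPI3. FAS1 in B184 over AAC at 0.2/h ranged from −0.106 to 0, ACC1 for the rate in AAC from −0.026 to 0.077, and OPI3 in the dependence of MH34 against AAC from −0.464 to 0.076.

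The library size alone moved the median of all genes by 0.12 in MH34 over AAC at 0.2/h, −0.10 at 0.1/h, 0.14 in B184 over MH34 at 0.1/h and −0.15 for the rate in AAC, and by 0.22 and −0.17 for the dependence of MH34 against AAC and of B184 against MH34. Groups share replicate numbers, but the deviations of same-numbered libraries correlated at −0.25 to 0.42 over 15 pairs of groups and above 0.1 in 1. The 1 pair above 0.1 was AAC and MH34 at 0.2/h (r 0.42), the groups of a comparison reported here. The numbers therefore do not pair the samples throughout, and what these 2 groups shared was not tested. With the replicate number as a block, CHO1 in MH34 over AAC at 0.2/h lost its call (log2 −0.39, edgeR adjusted p = 0.0555), with 5 members called there, and no other call of a member changed. Each member had at least 358 counts in every library, and the standard errors of strain and rate differences, apart from those of INO1, were 0.07 to 0.18, which limits what 2 libraries per group can show.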

Other observations

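Genes outside the enzymes described above also differed. FAA2, a fatty acyl-CoA synthetase of peroxisomes, had 51.7 and 57.8 CPM in B184 and 43.7 and 43.0 CPM in MH34 at 0.1/h, against 205 and 308 CPM in AAC. No library of an evolved strain came near AAC, and FAA2 fell by 2.23 in B184 and 2.57 in MH34 on the log2 scale (SE 0.17, edgeR adjusted p = 9.12e-06 and 6.71e-07). At 0.2/h, FAA2 was not called in B184 (log2 0.36) or MH34 (log2 0.17) over AAC, and in AAC it fell by 2.39 at 0.2/h over 0.1/h. AYR1, a reductase on the way to phosphatidic acid, was higher over AAC in both strains at both rates, by 1.15 in B184 and 0.87 in MH34 at 0.2/h and by 0.58 and 1.76 at 0.1/h (SE 0.12 to 0.13, edgeR adjusted p = 6.06e-07 to 0.00519).

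Of the 13 genes for phosphatidic acid, diacylglycerol and storage lipids, 4 were higher and 6 lower in MH34 over AAC at 0.1/h, where 68.8% of all genes were called, 35.5% higher and 33.3% lower. PAH1, the phosphatidate phosphatase that supplies diacylglycerol, had 122 and 125 CPM in B184 and 78.4 and 81.8 CPM in MH34 at 0.1/h, against 132 and 146 CPM in AAC, and LRO1, which makes storage lipid from phospholipid, had 146 and 129 CPM in B184 and 76.1 and 74.9 CPM in MH34, against 136 and 130 CPM in AAC. For both genes MH34 stood below the other strains, with falls over AAC of 0.80 ± 0.08 and 0.82 ± 0.08 SE on the log2 scale (edgeR adjusted p = 4.59e-06 and 3.02e-06). DPP1, another lipid phosphatase, had the opposite pattern, with 154 and 163 CPM in B184 and 321 and 330 CPM in MH34 at 0.1/h, against 173 and 193 CPM in AAC. GPT2, a glycerol phosphate acyltransferase, and ECT1 of the Kennedy pathway were called in the dependence of B184 against AAC on the rate, with 1.20 ± 0.29 and −0.36 ± 0.09 SE (edgeR adjusted p = 0.0487 for both).

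Of the 8 genes of mitochondrial fatty acid synthesis, 1 was higher and 2 were lower in each evolved strain over AAC at 0.2/h, a share near that of all genes called (36.2% in B184 and 33.1% in MH34). ETR1, its enoyl reductase, had 413 and 400 CPM in B184 and 390 and 298 CPM in MH34 at 0.2/h, against 233 and 143 CPM in AAC, and was higher by 1.11 ± 0.25 SE and 0.87 ± 0.25 SE (edgeR adjusted p = 0.00928 and 0.0282). HFA1, the mitochondrial acetyl-CoA carboxylase and paralog of ACC1, fell by 0.68 ± 0.10 SE in MH34 over AAC at 0.1/h, where ACC1 was higher by 0.56. At 0.2/h, HFA1 fell by 0.84 in B184 and 0.95 in AAC, where ACC1 had log2 fold changes of 0.16 and 0.02 and was not called.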
